A study of Rattus norvegicus and Bos taurus with 12 samples.

Results

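Heterotrimeric G proteins and the enzymes of cyclic nucleotide signaling were followed in adult rat ventricular myocytes (ARVM) and in cardiac fibroblasts (Cfib) of the calf right ventricle. The genes were taken from both deposited expression tables by symbol and comprise the G protein α, β and γ subunits, the regulators of G protein signaling (RGS), the receptor kinases and arrestins, the adenylyl and guanylyl cyclases, the phosphodiesterases, the protein kinase A and G subunits and the A-kinase anchoring proteins. Of the 7052 genes listed for ARVM 65 were members, and of the 2115 genes listed for Cfib 14 were. Together they make 72 different symbols out of 7989, and 7 of them are in both tables. Of the 65 rat members, 4 were taken only because their symbols begin with the same letters, and these are described separately. Rgs7bp, an anchor of RGS proteins, was kept with the RGS genes, and PDE6D, a carrier of lipid-modified proteins, with the phosphodiesterases.

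RNA sequencing covered 12 libraries, 3 in each of 4 groups. Freshly isolated ARVM came from hearts of healthy adult Sprague Dawley rats by collagenase digestion, and PH-CM ARVM were the same kind of cell after 7 days in medium conditioned by Cfib of calves with pulmonary hypertension (PH). The Cfib came from control (CO) calves kept at ambient altitude and from PH calves kept at reduced atmospheric pressure, and were grown in culture before RNA was taken. Where the labels describe the treatment as serum of cows from low or high altitude, the groups are named here as the study names them. The ARVM comparison joins the medium with the time in culture, and these cannot be told apart, because ARVM cultured without PH-CM were not analysed here. The Cfib comparison has no such difference in culture time given in the labels.

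When a hormone binds its receptor, the Gα subunit exchanges its nucleotide and parts from the Gβγ pair, and RGS proteins end the signal by speeding hydrolysis of the bound nucleotide. Gαs stimulates and Gαi restrains the adenylyl cyclases, phosphodiesterases break the cyclic nucleotide down, and protein kinase A, held near its substrates by anchoring proteins, phosphorylates calcium handling and contractile proteins. In the heart this pathway carries the response to adrenaline through β-adrenergic receptors, while nitric oxide and natriuretic peptides act through cyclic GMP.

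Both tables hold only genes that the authors had selected for a difference between the groups (p-value under 0.05). The groups did not overlap in 100% of the listed genes of either table, every adjusted p below was adjusted over selected genes, and a member that is not listed cannot be described. ARVM values are normalised read counts, that is, reads divided by a size factor for the library. They are not divided by gene length and serve to compare a gene between libraries, and the listed genes of a library hold 12122463 to 18842171 reads. Cfib values are a signal scaled to gene length and library whose depth is unknown. Values of ARVM are given for freshly isolated libraries 4, 5 and 6 and PH-CM libraries ha2, ha209 and ha211, as their titles number them, in that order, and those of Cfib for libraries 1, 2 and 3 of each group. Fold changes are differences of log2(value + 1) with their standard error, tested with limma, and adjusted p-values are by Benjamini-Hochberg. Values written with ± are the mean and SD over the 3 libraries of a group. The study describes the Cfib of each group as coming from separate animals, whereas nothing says so of the ARVM libraries, whose p-values measure the spread between libraries, which may be technical. On the second principal component of the listed genes, freshly isolated library 4 (score 40.6 against -22.6 and -19.7) and CO library 3 (-12.1 against 6.66 and 7.28) stood apart from their group. The listed cardiomyocyte markers of ARVM (7 of 8, among them Myh6 and Tnni3) were all lower in PH-CM, with a summed level of 1234000 to 1300000 normalised read counts per library in freshly isolated and 67200 to 78770 in PH-CM ARVM. The fibroblast markers (8 of 8 listed, all higher) went from 1427 to 1953 in freshly isolated to 86870 to 129600 in PH-CM ARVM, and the cycling markers (5 of 5, all higher) from between 40.3 and 98.5 to between 2135 and 3715. The listed red cell markers (2 of 4) went from 1941 to 2315 in freshly isolated ARVM to 0 in every PH-CM library, and no Schwann cell marker was listed. In bulk RNA, fewer cells of a type and less RNA per cell cannot be told apart, and the part of the cell makeup in the results below was not tested.

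In PH-CM ARVM, signaling genes of nearly every role moved, in both directions. RGS genes, counting the anchor Rgs7bp, went both ways, 9 higher and 4 lower, with Rgs2 18.9-fold higher and Rgs5, Rgs6, Rgs7 and Rgs16 lower. The soluble guanylyl cyclase subunit Gucy1b3 was 11.3-fold higher. Among the falls were also Prkaca, the catalytic subunit of protein kinase A, Akap6, Gnb3 and Pde4b. Of the 65 members 64 passed the threshold of 0.05, which is 98.5% and near the 97.6% of all listed ARVM genes. There were 37 higher members, where 53.9% of all listed genes were called higher, and 27 lower members, where 43.7% were called lower. The counts by role given below stand beside these shares. Counting only a log2 fold change of 1 or beyond in size, 40 members (61.5%) were called, 26 of them higher and 14 lower, beside 48.3% of all listed genes (32.3% higher and 16% lower). The median log2 fold change was 0.64 over the members and 0.37 over all listed genes, and the median size of the change was 1.36 and 0.96. Setting the 3 members without a read in freshly isolated ARVM at their lower bound leaves these medians where they are.

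**Figure D1:**
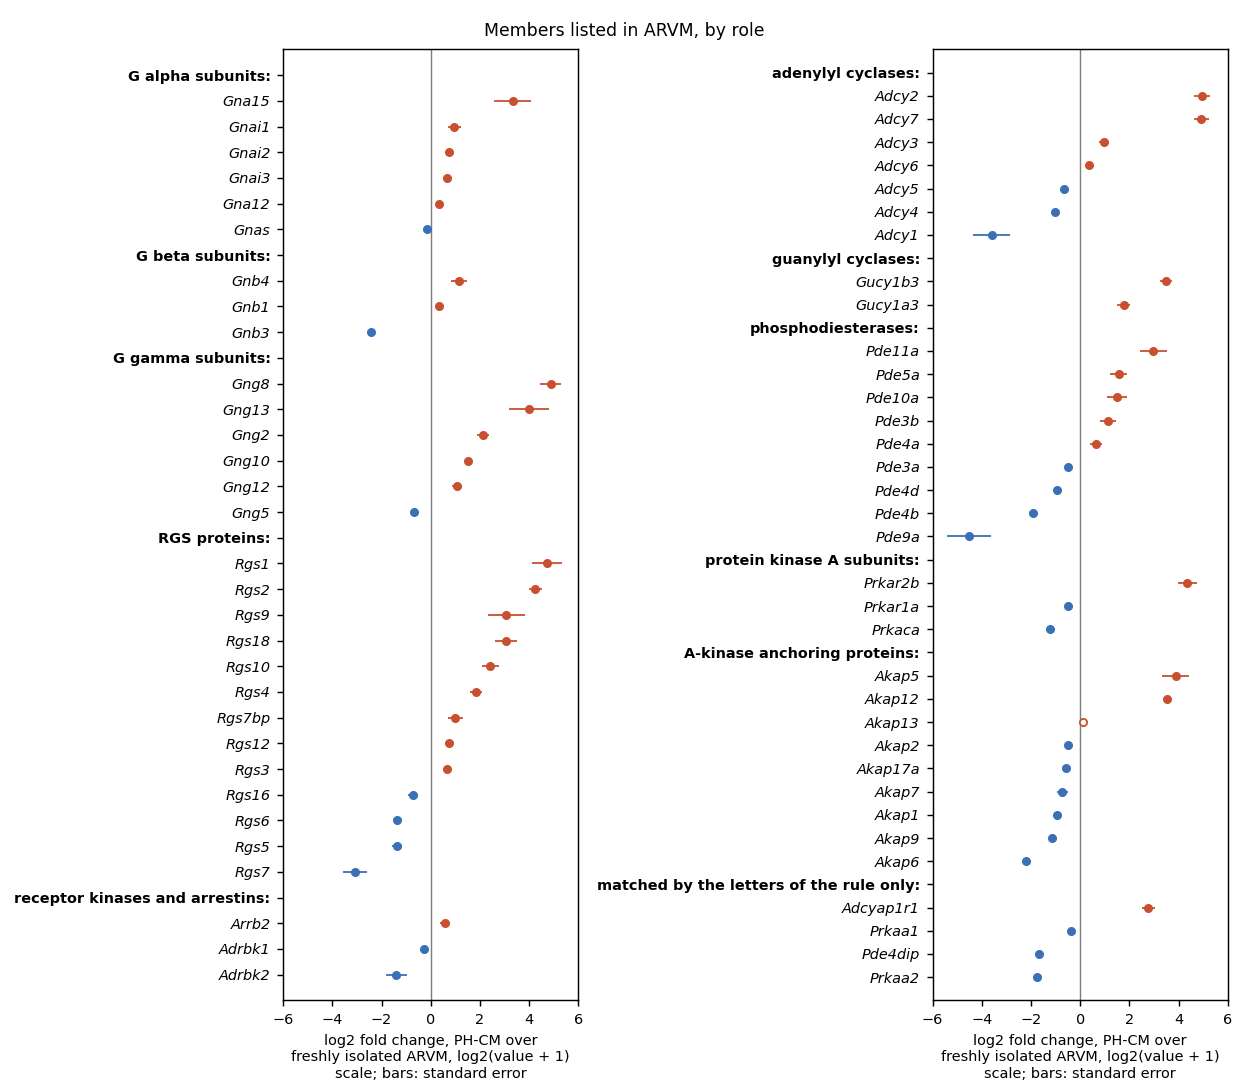
Log2 fold change of each of the 65 members in ARVM (PH-CM over freshly isolated, horizontal axis, log2(value + 1) scale) with its standard error, grouped by role. Filled points passed the threshold, red higher and blue lower, the open point is Akap13 at 0.12, and the fitted values of Adcy2, Gng8 and Rgs18, which had no read in freshly isolated ARVM, are no bound.

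For the members with the largest changes among those with a mean of at least 200 normalised read counts in the higher group, 3 higher and 3 lower, the stretch just before the gene start is printed, to place each gene that the results turn on. The sequences are RefSeq's for the rat assembly GRCr8, 250 bases that end at the start of the gene, read 5′ to 3′ on the gene's strand. Gnb3, the sixth of them, has no entry. Adcy7 is at chr19:34936545-34936794 on the minus strand, Prkar2b at chr6:54381412-54381661 on the minus strand, Rgs2 at chr13:58352667-58352916 on the minus strand, Akap6 at chr6:75919263-75919512 on the plus strand and Pde4b at chr5:122028706-122028955 on the plus strand. Capitals mark GC boxes (GGGCGG), the TGACG core of the cAMP response element and TATA boxes (TATAAA), on either strand.
Adcy7: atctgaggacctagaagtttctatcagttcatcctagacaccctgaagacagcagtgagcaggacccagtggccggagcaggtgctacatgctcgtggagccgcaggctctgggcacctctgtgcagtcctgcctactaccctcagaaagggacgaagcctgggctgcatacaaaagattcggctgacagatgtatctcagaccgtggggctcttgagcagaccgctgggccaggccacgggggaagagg
Prkar2b: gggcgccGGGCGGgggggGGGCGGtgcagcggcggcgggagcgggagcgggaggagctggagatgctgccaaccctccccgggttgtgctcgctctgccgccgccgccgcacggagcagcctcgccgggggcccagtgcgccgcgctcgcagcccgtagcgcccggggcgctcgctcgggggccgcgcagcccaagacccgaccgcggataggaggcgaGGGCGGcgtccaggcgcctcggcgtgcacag
Rgs2: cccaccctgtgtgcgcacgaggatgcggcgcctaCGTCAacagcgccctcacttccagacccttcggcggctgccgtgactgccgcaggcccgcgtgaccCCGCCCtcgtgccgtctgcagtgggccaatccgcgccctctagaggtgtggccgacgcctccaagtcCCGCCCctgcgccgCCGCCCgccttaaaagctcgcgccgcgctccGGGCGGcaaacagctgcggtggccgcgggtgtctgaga
Akap6: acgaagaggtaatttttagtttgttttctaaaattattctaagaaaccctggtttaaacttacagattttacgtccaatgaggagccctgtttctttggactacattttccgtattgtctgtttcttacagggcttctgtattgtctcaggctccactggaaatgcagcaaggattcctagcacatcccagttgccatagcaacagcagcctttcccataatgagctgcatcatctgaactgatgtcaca
Pde4b: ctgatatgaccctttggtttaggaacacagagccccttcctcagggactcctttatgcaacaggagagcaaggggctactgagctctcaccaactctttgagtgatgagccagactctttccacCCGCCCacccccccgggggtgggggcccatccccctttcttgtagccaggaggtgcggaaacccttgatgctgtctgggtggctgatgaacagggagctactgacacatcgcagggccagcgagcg
Rgs2 holds 1 TGACG core, which starts 216 bases before the gene, and 4 GC boxes. Prkar2b holds 3 GC boxes and Pde4b 1, while Adcy7 and Akap6 hold none of these motifs. In this window the GC box is in 39 of the 56 members that have an entry (69.6%). It is in 57.7% of the 5596 listed ARVM genes that have an entry and in 32.4% of all 27457 rat promoters. The shares of listed genes that follow are over these 5596. The TGACG core is in 10 members (17.9%), 27.5% of listed genes and 19% of all promoters. The complete element TGACGTCA, of which this core is a part, is in 1 member, Akap17a, and in 2.77% of listed genes. TATA boxes are in 5 members (8.93%) against 7.24% of listed genes, and AP-1 sites (TGANTCA, both strands) in 2 members (3.57%) against 4.57%. A match is a description of these letters, and a window without one says nothing about a factor.

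Among the Gα subunits 5 of the 6 listed were higher in PH-CM and 1 lower. Gnai2, which encodes an inhibitory α subunit that restrains adenylyl cyclase, had normalised read counts of 2755, 2546 and 2481 in freshly isolated and 4417, 3923 and 4814 in PH-CM ARVM. Its mean went from 2594 ± 143 in freshly isolated ARVM to 4385 ± 446 in PH-CM ARVM (SD, n = 3; log2 fold change 0.75, standard error 0.08, adjusted p = 8.53e-05). The other inhibitory subunits moved the same way, Gnai1 from 99.4 ± 27.1 to 194 ± 45.8 (log2 fold change 0.96, adjusted p = 0.00922) and Gnai3 from 852 ± 79.2 to 1348 ± 206 (log2 fold change 0.65, adjusted p = 0.00149). Gnas, the stimulatory subunit, had 9340.4, 8588 and 9413 in freshly isolated and 7972, 8534 and 7942 in PH-CM ARVM. The groups stood only just apart, at 8588 for the lowest freshly isolated library and 8534 for the highest PH-CM library, and the change was small (log2 fold change -0.16, standard error 0.06, adjusted p = 0.0340). It no longer passed without freshly isolated library 4 (adjusted p = 0.0860) or 6 (0.111), without PH-CM library ha2 (0.0883) or ha211 (0.0889), or without the mean-variance trend (0.0868). Within a library the ratio of Gnai2 to Gnas was 0.295, 0.296 and 0.264 in freshly isolated and 0.554, 0.460 and 0.606 in PH-CM ARVM. Only the change of such a ratio between groups can be read, since the values carry the gene lengths.

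Gna12 went from 1468 ± 145 in freshly isolated ARVM to 1858 ± 7.87 in PH-CM ARVM (SD, n = 3; log2 fold change 0.34, standard error 0.08, adjusted p = 0.00356). Gna15, a Gq class subunit known from blood cells, had 3 reads in all freshly isolated libraries together and 68 in PH-CM, a ratio of 15.7 at equal library size (95% exact interval 5.14 to 77.9). Such intervals cover counting error only. The 3 listed Gβ members split. Gnb3 fell in every library, from 1894, 1920.5 and 1967 to 359, 373 and 336 normalised read counts (log2 fold change -2.43, standard error 0.07, adjusted p = 1.35e-07). Gnb1, the most widespread β subunit, went from 1046 ± 28.9 to 1329 ± 82.1 (log2 fold change 0.34, adjusted p = 0.00212), and Gnb4 from 60.7 ± 19.6 to 132 ± 26.6 (log2 fold change 1.14, adjusted p = 0.00880). The ratio of Gnb3 to Gnb1 within a library thereby moved from 1.76, 1.88 and 1.90 to 0.270, 0.299 and 0.238.

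Gγ subunits, which anchor the βγ pair in the membrane, were higher in 5 of 6 cases. Gng10 had 525, 496 and 603 in freshly isolated and 1598, 1468 and 1569.9 in PH-CM ARVM, and the PH-CM libraries lay far above the freshly isolated ones (log2 fold change 1.52, standard error 0.09, adjusted p = 3.22e-06). Gng2 had 111, 61.1 and 82.6 in freshly isolated and 361, 330.4 and 405 in PH-CM ARVM (log2 fold change 2.13, standard error 0.24, adjusted p = 9.02e-05). Gng12 was also higher, with 158, 192 and 239.7 against 319, 456 and 454 (log2 fold change 1.06). Gng5 was the member that fell, with 9272, 8047 and 7437 in freshly isolated and 5066, 4782 and 5319 in PH-CM ARVM (log2 fold change -0.70, standard error 0.09, adjusted p = 0.000161). Gng8 had no read in any freshly isolated library and 20.4, 50.04 and 22.0 normalised read counts in PH-CM, from 111 reads, which is at least 25.6-fold higher against a floor of 3 reads over the group. Gng13 had 7 reads against 120 (ratio 11.9, 95% exact interval 5.58 to 30.1). In RefSeq the loci of Gnai3, Gng5, Gng10 and Gng13 overlap those of other protein-coding genes, as do 15 of the 65 members in all, and since the strand of counting is not stated, reads of such neighbours cannot be told apart.

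**Figure D2:**
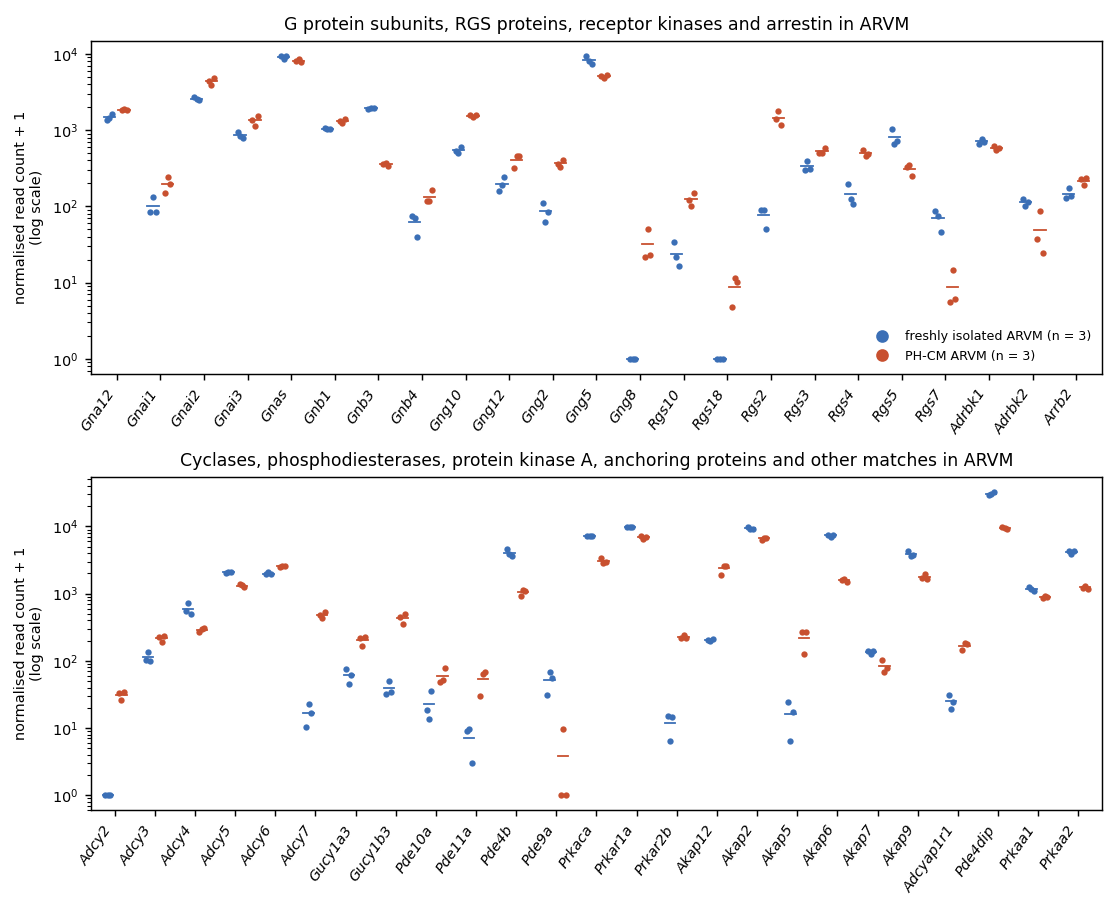
Normalised read count + 1 (vertical axes, log scale) of named ARVM members in each freshly isolated and each PH-CM library, with lines at the group means. Gnai2, Rgs2, Adcy7, Gucy1b3 and Akap12 lie higher and Gnb3, Pde4b, Prkaca and Akap6 lower in all 3 PH-CM libraries. No listed gene has groups that overlap.

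RGS genes were the largest class, with 13 listed, 9 higher and 4 lower, counting the anchor Rgs7bp. Rgs2, whose protein acts mainly on Gq, had 88.6, 88.9 and 49.6 in freshly isolated and 1382, 1764 and 1150.1 in PH-CM ARVM. The groups were far apart, and the mean went from 75.7 ± 22.6 in freshly isolated ARVM to 1432 ± 309.7 in PH-CM ARVM (SD, n = 3; log2 fold change 4.25, standard error 0.26, adjusted p = 3.51e-06). Rgs4, which acts on Gi and Gq, had 196, 123 and 107 in freshly isolated and 553, 456 and 478 in PH-CM ARVM (log2 fold change 1.84, standard error 0.23, adjusted p = 0.000171). Rgs3, a further regulator of Gi and Gq, went from 335 ± 49.2 to 529 ± 46.8 (log2 fold change 0.66, adjusted p = 0.00220). Rgs12 rose by a log2 fold change of 0.73, and Rgs7bp, a membrane anchor of the Rgs7 group of proteins, by 1.01.

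Rgs1, Rgs10 and Rgs18 are known from leukocytes or platelets. Rgs10 had 33.2, 20.4 and 15.5 in freshly isolated and 119, 100.1 and 149.8 in PH-CM ARVM (log2 fold change 2.42, standard error 0.34, adjusted p = 0.000321). Rgs1 had 2 reads in freshly isolated ARVM against 158 in PH-CM (ratio 54.6, 95% exact interval 14.9 to 455), and Rgs18 none against 28, which is at least 6.46-fold higher. The highest PH-CM value of Rgs1 was 71.1 in library ha2, beside 26.7 and 27.9 in the other libraries. Macrophage markers moved with these genes and with Gna15 and Adcy7, as 6 of 7 were listed and all 6 were higher, with a summed level of 186 to 280.0 in freshly isolated and 1974 to 2864 normalised read counts in PH-CM ARVM. Their part in the result was not tested.

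Rgs5, Rgs6, Rgs7 and Rgs16 fell. Rgs6 and Rgs7 belong to the group that pairs with the atypical Gβ5 subunit, and Rgs6 is known to shorten Gi signals of the vagus nerve in the heart. Rgs6 had 434, 462 and 477 in freshly isolated and 182, 214 and 144 in PH-CM ARVM (log2 fold change -1.36, standard error 0.17, adjusted p = 0.000156). Rgs7 had 87.04, 72.8 and 45.5 in freshly isolated and 4.54, 13.8 and 5.08 in PH-CM ARVM (log2 fold change -3.08, standard error 0.47, adjusted p = 0.000485). Rgs9, of the same group, lay in the other direction at 9 reads against 110 (ratio 8.45, 95% exact interval 4.29 to 19.0). Rgs16 went from 351 ± 40.8 to 216 ± 53.5 (log2 fold change -0.72, adjusted p = 0.00975). Rgs5, a regulator abundant in pericytes, had 1027, 657 and 728 in freshly isolated and 325, 349 and 252 in PH-CM ARVM (log2 fold change -1.36, standard error 0.19, adjusted p = 0.000316). Of the 8 smooth muscle and pericyte markers, all listed, 7 were higher and 1, Cspg4, lower in PH-CM (mean 1678 to 1217). Their summed level was 3334 to 3736 in freshly isolated and 31930 to 50510 in PH-CM ARVM. Most of the PH-CM level was Tagln (mean 257 to 21540) and Acta2 (mean 293 to 10007.5). The part of these markers in the result was not tested.

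Receptor kinases phosphorylate activated receptors, which then bind arrestin. Adrbk1, which encodes GRK2, the main kinase of the cardiac β-adrenergic receptor, had 663, 774 and 708 in freshly isolated and 614, 550.4 and 589 in PH-CM ARVM (log2 fold change -0.29, standard error 0.09, adjusted p = 0.0174). It no longer passed without freshly isolated library 5 (adjusted p = 0.0667). Adrbk2, which encodes GRK3, had 123, 99.6 and 115 in freshly isolated and 36.3, 85.4 and 23.7 in PH-CM ARVM (log2 fold change -1.40, standard error 0.44, adjusted p = 0.0163). PH-CM library ha209 lay close to the freshly isolated range, and leaving out PH-CM library ha2 (adjusted p = 0.0623) or ha211 (0.0510) ended the call, the log2 fold change ranging from -1.90 to -0.99 over the libraries left out. Arrb2, β-arrestin 2, had 128, 174 and 136 in freshly isolated and 227, 189 and 236 in PH-CM ARVM (log2 fold change 0.58, standard error 0.19, adjusted p = 0.0187), and without PH-CM library ha2 or ha211 its adjusted p was 0.0618 or 0.0637.

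Of the 7 listed adenylyl cyclases, which make cyclic AMP, 4 were higher and 3 lower. Adcy5 and Adcy6 are the main forms of heart muscle and both are inhibited by Gαi and calcium. Adcy5 had 2026, 2105 and 2108 in freshly isolated and 1377, 1325 and 1237 in PH-CM ARVM (log2 fold change -0.66, standard error 0.06, adjusted p = 3.45e-05). Adcy6 had 1937, 2081 and 1959.7 in freshly isolated and 2533, 2601 and 2588 in PH-CM ARVM (log2 fold change 0.37, standard error 0.05, adjusted p = 0.000376). The pair thus moved in opposite directions, and the ratio of Adcy5 to Adcy6 within a library went from 1.05, 1.01 and 1.08 to 0.544, 0.509 and 0.478. The pairs of genes for such ratios were chosen after their values were seen, and the ratios were not tested. The locus of Adcy6 overlaps that of Tuba1c in RefSeq.

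Adcy7, an isoform that βγ subunits can stimulate and that is known from blood cells, had 9.495, 21.4 and 15.5 in freshly isolated and 475, 429 and 524 in PH-CM ARVM. Its mean went from 15.5 ± 5.96 in freshly isolated ARVM to 476 ± 47.5 in PH-CM ARVM (SD, n = 3), a 30.8-fold difference (log2 fold change 4.92, standard error 0.31, adjusted p = 4.04e-06). Adcy2, another isoform stimulated by βγ, was without a read in the freshly isolated libraries and had 31.8, 25.02 and 33.9 normalised read counts in PH-CM, from 111 reads, at least 25.6-fold higher. Adcy3 went from 112 ± 20.1 to 215 ± 20.9 (log2 fold change 0.95, adjusted p = 0.00233). Adcy4, common in endothelium, had 554, 718 and 505 in freshly isolated and 272, 293 and 302 in PH-CM ARVM (log2 fold change -1.02, standard error 0.15, adjusted p = 0.000357). Of the 7 endothelial markers, all listed, 6 were lower and 1 higher in PH-CM, with a summed level of 8223 to 9897 in freshly isolated and 3507 to 3982 in PH-CM ARVM, and their part in the change of Adcy4 was not tested. Adcy1, a calcium-calmodulin stimulated form, had 60 reads against 4 and was lower in PH-CM by a ratio of 21.7 (95% exact interval 8.04 to 82.2).

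Both listed guanylyl cyclase genes, the subunits of the soluble enzyme that is activated by nitric oxide, rose. Gucy1b3, the β1 subunit, had 31.7, 49.3 and 33.1 in freshly isolated and 446, 347 and 499 in PH-CM ARVM, and its mean went from 37.99 ± 9.79 in freshly isolated ARVM to 431 ± 77.4 in PH-CM ARVM (SD, n = 3; log2 fold change 3.48, standard error 0.25, adjusted p = 7.94e-06). Gucy1a3, the α1 subunit, had 74.4, 44.99 and 59.9 in freshly isolated and 220.1, 166 and 228 in PH-CM ARVM (log2 fold change 1.77, standard error 0.26, adjusted p = 0.000358). Each PH-CM library was well above every freshly isolated library for both subunits, while the groups did not overlap in 100% of the listed genes.

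Phosphodiesterases split into 5 higher and 4 lower. Pde4b, a cyclic AMP-specific enzyme, had 4559, 3861 and 3606 in freshly isolated and 933, 1119 and 1088 in PH-CM ARVM (log2 fold change -1.93, standard error 0.11, adjusted p = 1.92e-06). Pde4d, of the same family, went from 502 ± 32.3 to 259 ± 18.4 (log2 fold change -0.95, adjusted p = 0.000143). Pde3a, the cyclic GMP-inhibited form of heart muscle, had 804, 1003 and 1003 against 627, 659 and 725 (log2 fold change -0.48, adjusted p = 0.00407). The ratio of Pde4b to Pde3a went from 5.67, 3.85 and 3.60 to 1.49, 1.70 and 1.5.

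Pde9a, specific for cyclic GMP, had 30.1, 67.5 and 53.7 in freshly isolated and 0, 8.63 and 0 in PH-CM ARVM, from 134 reads against 10, and was lower by a ratio of 19.4 (95% exact interval 10.2 to 41.3). By contrast Pde5a, the cyclic GMP-specific target of sildenafil, went from 15.9 ± 3.204 to 49.4 ± 12.8 (log2 fold change 1.56, adjusted p = 0.00252). The enzymes Pde10a and Pde11a, which degrade both nucleotides, rose by log2 fold changes of 1.4998 and 2.98, the latter with 7.91, 8.57 and 2.07 in freshly isolated and 28.7, 62.1 and 66.9 in PH-CM ARVM. Pde3b rose by 1.14. Pde4a, at 44.6 ± 0.363 to 70.9 ± 14.8, had an adjusted p of 0.0409 from limma, and it was not called by edgeR or DESeq2 on the recovered reads, nor without any of freshly isolated libraries 4, 5 and 6 and PH-CM libraries ha209 and ha211.

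Protein kinase A is a tetramer of regulatory and catalytic subunits. Prkaca, the main catalytic subunit, had 7117, 7119 and 7104 in freshly isolated and 3335, 2866 and 2949 in PH-CM ARVM. The freshly isolated libraries were nearly equal and every PH-CM library was far below them (log2 fold change -1.22, standard error 0.07, adjusted p = 1.91e-06). Prkar1a, the type I regulatory subunit, had 9777, 9754 and 9715 in freshly isolated and 7128, 6594 and 7018 in PH-CM ARVM (log2 fold change -0.50, standard error 0.05, adjusted p = 7.33e-05). Prkar2b, the type II β regulatory subunit, had 14.2, 5.36 and 13.4 in freshly isolated and 221, 244 and 221 in PH-CM ARVM, and its mean went from 11.01 ± 4.91 in freshly isolated ARVM to 229 ± 13.5 in PH-CM ARVM (SD, n = 3; log2 fold change 4.36, standard error 0.38, adjusted p = 2.25e-05). The ratio of Prkar2b to Prkar1a was 0.00146, 0.000549 and 0.00138 in freshly isolated and 0.0310, 0.0370 and 0.0315 in PH-CM ARVM. In RefSeq Prkaca overlaps Smim46 and Prkar1a overlaps Fam20a.

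**Figure D3:**
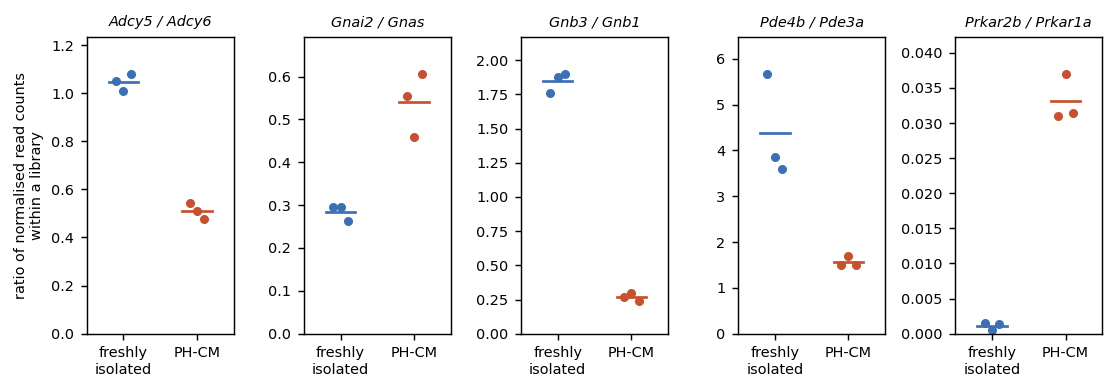
Ratio of the normalised read counts of 5 pairs of members within each ARVM library (vertical axes). The ratios of Adcy5 to Adcy6, Gnb3 to Gnb1 and Pde4b to Pde3a are lower, and those of Gnai2 to Gnas and Prkar2b to Prkar1a higher, in all 3 PH-CM libraries.

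Anchoring proteins had 6 of 9 members lower, 2 higher and 1 not called. Akap6, the scaffold of the nuclear envelope of muscle cells, had 7484, 7045 and 7494 in freshly isolated and 1586, 1672 and 1486 in PH-CM ARVM (log2 fold change -2.22, standard error 0.06, adjusted p = 1.09e-07). Akap9, which holds the kinase at the centrosome and at a potassium channel, had 4274, 3587 and 3809.8 in freshly isolated and 1700, 1972 and 1661 in PH-CM ARVM (log2 fold change -1.13, standard error 0.09, adjusted p = 1.43e-05). Akap1, the anchor of the mitochondrial outer membrane, went from 2683 ± 100.02 to 1388 ± 22.7 (log2 fold change -0.95, adjusted p = 2.76e-06), and Akap2, a further anchor, from 9397 ± 458 to 6645 ± 268 (log2 fold change -0.50, adjusted p = 0.000139). Akap7, which serves calcium handling at the membranes, went from 135 ± 8.78 to 82.1 ± 17.7 (log2 fold change -0.73, adjusted p = 0.0145), and Akap17a, a splicing regulator, had a log2 fold change of -0.59.

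The rises among the anchors were Akap12 and Akap5. Akap12, or gravin, a scaffold of the cell cortex, had 201, 196 and 210.7 in freshly isolated and 1889, 2609.8 and 2608 in PH-CM ARVM, and its mean went from 203 ± 7.49 in freshly isolated ARVM to 2369 ± 415 in PH-CM ARVM (SD, n = 3; log2 fold change 3.53, standard error 0.13, adjusted p = 3.42e-07). Akap5, which binds protein kinase A and calcineurin near the membrane, had 23.7, 5.36 and 16.5 in freshly isolated and 264, 125 and 266 in PH-CM ARVM (log2 fold change 3.89, standard error 0.55, adjusted p = 0.000306), with PH-CM library ha209 lower than the other PH-CM libraries but above all freshly isolated ones. Akap13 had 4757, 4725 and 4716 in freshly isolated and 5224, 5327 and 4875 in PH-CM ARVM, and was the member whose change did not pass the threshold (log2 fold change 0.12, standard error 0.05, adjusted p = 0.0610).

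The 4 genes matched by letters alone are not of these families. Adcyap1r1, the receptor of the neuropeptide PACAP that couples to Gs, had 30.1, 18.2 and 23.8 in freshly isolated and 144, 183 and 177 in PH-CM ARVM (log2 fold change 2.77, standard error 0.28, adjusted p = 4.59e-05). Pde4dip, or myomegalin, an anchor of phosphodiesterase and kinase, had 29017, 30220 and 32221 in freshly isolated and 9783, 9445 and 9158 in PH-CM ARVM (log2 fold change -1.69, standard error 0.07, adjusted p = 3.88e-07). The subunits of the AMP-activated kinase Prkaa1 and Prkaa2 were lower, with log2 fold changes of -0.39 and -1.76 (adjusted p = 0.00204 and 3.63e-07). Without these genes, 36 of the 61 members were called higher and 24 lower, beside 53.9% and 43.7% of all listed ARVM genes.

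Receptors, effectors and substrates of the pathway were taken from a list of 65 further genes, of which 46 were listed in ARVM. Of these 17 were called higher, 27 lower and 2 neither. With 95.7% called they were near the 97.6% of all listed ARVM genes, of which 53.9% were called higher and 43.7% lower. Receptors had 9 of 12 listed genes higher. Agtr1a, the angiotensin II receptor that couples to Gq, had 12.7, 0 and 17.6 in freshly isolated and 541, 374 and 659 in PH-CM ARVM (log2 fold change 6.34, standard error 1.01, adjusted p = 0.000567). Ednrb, the endothelin B receptor, which is common in endothelium, had 979.6, 925 and 911 in freshly isolated and 94.5, 156 and 93.1 in PH-CM ARVM (log2 fold change -3.07, standard error 0.21, adjusted p = 5.74e-06). Of the natriuretic peptides and nitric oxide synthases 4 of 5 fell, among them Nos3, the endothelial synthase, from 686 ± 84.7 to 313 ± 86.2 (log2 fold change -1.16), and 1 rose. Proteins that bind cyclic nucleotides outside the kinases were listed for 3 of 9 genes and all fell, with log2 fold changes of -1.51 for the pacemaker channel Hcn2 and -1.26 for Bves, a Popeye domain protein. Among inhibitors and substrates of protein kinase A 11 of 15 fell and 3 rose. Of these genes Tnni3 and Ryr2 are also cardiomyocyte markers, and the part of the cell makeup was not tested. Tnni3, cardiac troponin I, went from 205534 ± 14179.6 to 10129 ± 1591 (log2 fold change -4.35), and Hspb6, a small heat shock protein that the kinase phosphorylates, from 11781 ± 119.9 to 1606 ± 222 (log2 fold change -2.88). Effectors and modulators had 4 of 11 higher and 6 lower, with Gpsm2, which holds Gαi during cell division, at 3.06 and the phospholipase Plcb2 at 3.04.

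In Cfib of PH calves, the calmodulin-dependent phosphodiesterase PDE1A was 10.2-fold higher than in CO, and RGS genes and the protein kinase G gene PRKG1 were higher as well. Of the adenylyl cyclases ADCY3 was higher and ADCY4 lower. All 14 listed members passed, where 97.5% of the listed Cfib genes did. They comprise 10 higher members, where 58.2% of listed genes were called higher, and 4 lower members, where 39.4% were called lower. Counting only changes of 1 or beyond on the log2 scale, 8 members (57.1%) were called, beside 34% of listed genes. Of these 7 were higher, beside 19.7%, and 1 lower, beside 14.3%. The median log2 fold change was 0.84 over the members and 0.33 over all listed genes. Rescaling the libraries by the median of ratios moved the median of all listed genes from 0.33 to 0.07. The ratios came from the listed genes alone, which were selected for a difference, 1262 of them higher and 853 lower. Such a rescaling cannot tell an offset of the libraries from a real excess of rises. Under this rescaling 8 members were called higher and the same 4 lower. RGS3 (0.18, adjusted p = 0.234) and ADRBK1 (0.00031, adjusted p = 0.997) did not pass.

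PDE1A degrades both cyclic nucleotides when calcium-calmodulin binds it. Its signal was 2.83, 1.901 and 1.66 in CO and 22.2, 21.5 and 21.7 in PH Cfib, so that the groups were far apart and the PH libraries nearly equal. The mean went from 2.13 ± 0.619 in CO Cfib to 21.8 ± 0.355 in PH Cfib (SD, n = 3; log2 fold change 2.88, standard error 0.14, adjusted p = 1.02e-05). PDE6D, which carries lipid-modified proteins between membranes, had 26.2, 27.3 and 31.2 in CO and 20.1, 23.6 and 24.1 in PH Cfib (log2 fold change -0.31, standard error 0.10, adjusted p = 0.0198), and without PH library 1 its adjusted p was 0.0638.

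All 4 listed RGS genes were higher, where 58.2% of all listed Cfib genes were called higher. RGS5 had 0.4599, 0.2898 and 0.227 in CO and 3.94, 3.59 and 3.09 in PH Cfib, with every CO library below 0.5 (log2 fold change 1.77, standard error 0.11, adjusted p = 2.21e-05). On the log2(value + 1) scale the change of such low values is understated. RGS7 had 4.84, 3.65 and 3.48 in CO and 13.4, 13.6 and 12.2 in PH Cfib (log2 fold change 1.504, standard error 0.12, adjusted p = 6.60e-05), and RGS11, a relative that also pairs with GNB5, had 0.394, 0.459 and 0.5004 in CO and 1.33, 1.19 and 1.07 in PH Cfib (log2 fold change 0.60, standard error 0.08, adjusted p = 0.000495). Their partner GNB5 was lower, with 19.1, 20.3 and 19.2 in CO and 14.7, 14.7 and 13.6 in PH Cfib (log2 fold change -0.42, standard error 0.07, adjusted p = 0.00109). RGS3 had 12.1, 11.3 and 15.3 in CO and 16.4, 18.4 and 18.7 in PH Cfib (log2 fold change 0.45, standard error 0.12, adjusted p = 0.0104), the lowest PH library lying close to CO library 3. Pericytes are known for RGS5, and of the smooth muscle and pericyte markers 5 of 8 were listed, 4 higher and 1, CNN1, lower. Their summed signal was 97.95 to 133.9 in CO and 225 to 237 in PH Cfib, most of it ACTA2 (mean 86.6 to 202). The part of these markers in the result was not tested.

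The Gα members were GNAL, the stimulatory subunit of olfactory and striatal neurons, and GNAT2, the transducin of cones. GNAL had 1.88, 1.47 and 0.922 in CO and 4.14, 4.08 and 4.01 in PH Cfib (log2 fold change 1.09, standard error 0.15, adjusted p = 0.000655). GNAT2 had 2.86, 3.04 and 0.780 in CO and 7.48, 5.22 and 4.73 in PH Cfib, the CO library 3 lying far below the other CO libraries (log2 fold change 1.15, standard error 0.34, adjusted p = 0.0146). Without CO library 3 its log2 fold change was 0.76, and without PH library 1 it no longer passed (adjusted p = 0.0523). ADRBK1 had 19.8, 21.4 and 18.3 in CO and 24.3, 24.8 and 23.4 in PH Cfib (log2 fold change 0.28, standard error 0.07, adjusted p = 0.0106).

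ADCY3, an adenylyl cyclase best known from the olfactory system and primary cilia, had 7.92, 9.56 and 3.46 in CO and 20.98, 21.4 and 20.5 in PH Cfib (log2 fold change 1.55, standard error 0.31, adjusted p = 0.00293). CO library 3 was again the lowest, and the log2 fold change without it was 1.18 (adjusted p = 1.9e-05). PRKG1, the cyclic GMP-dependent kinase of smooth muscle and fibroblasts, had 4.62, 4.09 and 1.08 in CO and 8.14, 8.38 and 7.38 in PH Cfib (log2 fold change 1.20, standard error 0.37, adjusted p = 0.0169), and 0.74 without CO library 3. The log2 fold change of GNAL without that library was 0.93. ADCY4 went the other way, with 2.49, 2.35 and 1.797 in CO and 0.722, 0.6003 and 0.466 in PH Cfib (log2 fold change -1.01, standard error 0.11, adjusted p = 0.000278). AKAP7, the listed anchoring protein, had 1.81, 1.97 and 1.91 in CO and 1.15, 0.896 and 1.27 in PH Cfib (log2 fold change -0.47, standard error 0.09, adjusted p = 0.00290). The 3 listed cycling markers were lower in PH Cfib, with a summed signal of 134 to 214 in CO and 7.59 to 9.81 in PH. The listed fibroblast markers (2 of 8) were both higher, with 1873 to 2538 in CO and 6028 to 6331 in PH, and of 3 of 7 macrophage markers listed 2 were higher and 1 lower, with 7.76 to 11.0 and 7.82 to 8.51. The cardiomyocyte, endothelial, red cell and Schwann cell markers were not listed, and the part of these cells in the results was not tested.

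**Figure D4:**
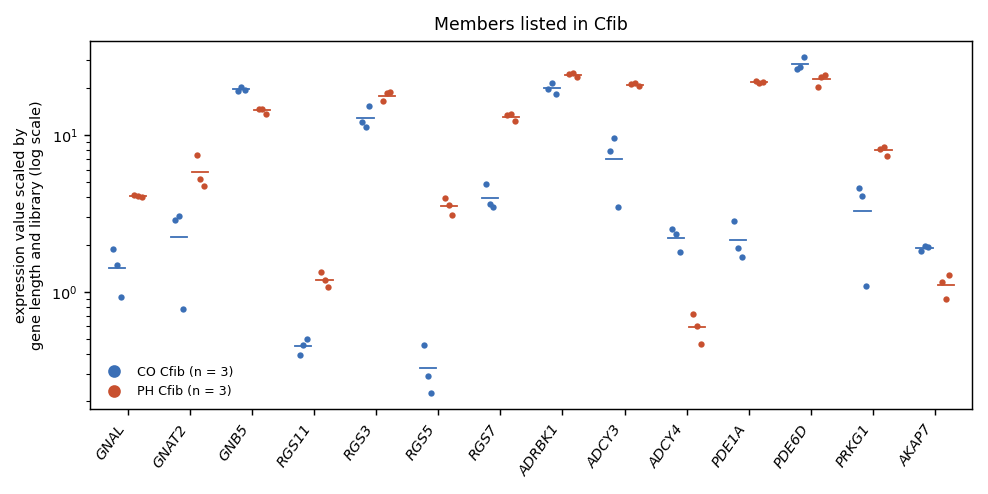
Deposited signal (vertical axis, log scale, scaled to gene length and library) of the 14 members in each CO and each PH Cfib library, with lines at the group means. PDE1A, RGS5, RGS7 and GNAL lie higher and ADCY4 and GNB5 lower in all 3 PH libraries, and CO library 3 is the lowest CO library for GNAT2, ADCY3 and PRKG1. No listed gene has groups that overlap.

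The spread between PH Cfib libraries was smaller than between CO libraries, with correlations across listed genes of 0.997 to 0.998 and 0.976 to 0.993.

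Of the 65 further pathway genes 13 were listed in Cfib, 11 higher and 2 lower. All 13 were called, where 97.5% of all listed Cfib genes were, 58.2% higher and 39.4% lower. NPR3, the clearance receptor of natriuretic peptides, had 12.4, 10.4 and 4.15 in CO and 37.02, 33.8 and 32.5 in PH Cfib (log2 fold change 1.94), and EDNRA, the endothelin A receptor, a log2 fold change of 1.71. NPR1, the natriuretic peptide receptor that makes cyclic GMP, was higher by 1.62, and PTGER4, a prostaglandin E receptor that couples to Gs, was lower, with 10.4, 7.54 and 8.52 in CO and 2.09, 2.64 and 1.87 in PH Cfib (log2 fold change -1.61, standard error 0.14, adjusted p = 9.85e-05). POPDC3, a Popeye domain protein that binds cyclic AMP, went from 0.257 ± 0.0897 to 9.81 ± 1.29 (log2 fold change 3.10). The listed inhibitors and substrates of protein kinase A were all 4 higher, among them FXYD1, a regulator of the sodium pump (log2 fold change 1.66), and HSPB6 (1.21). Among the effectors the phospholipase PLCB3 was higher (0.58) and GPSM2 lower (-0.52).

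Rgs3, Rgs5, Rgs7, Adrbk1, Adcy3, Adcy4 and Akap7 were in both tables. The tables differ in species, cell and contrast and were normalised separately, so the values stand side by side and no difference between them was tested. Rgs3 had a log2 fold change of 0.66 in ARVM and 0.45 in Cfib, and Adcy3 0.95 and 1.55. Both were higher in the treated or PH group of each table, although RGS3 did not pass in Cfib once the libraries were rescaled (0.18, adjusted p = 0.234). Adcy4 was at -1.02 in ARVM and -1.01 in Cfib, and Akap7 at -0.73 and -0.47, both lower. The size in Cfib depends on the value of 1 added to low signals, and the fold of the means was 2.05 for Adcy4 in ARVM and 3.71 for ADCY4 in Cfib. Rgs5 was lower in ARVM at -1.36 and higher in Cfib at 1.77, as was Rgs7 at -3.08 and 1.504. Adrbk1 had -0.29 and 0.28, the latter at 0.00031 once the Cfib libraries were rescaled over the selected genes.

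**Figure D5:**
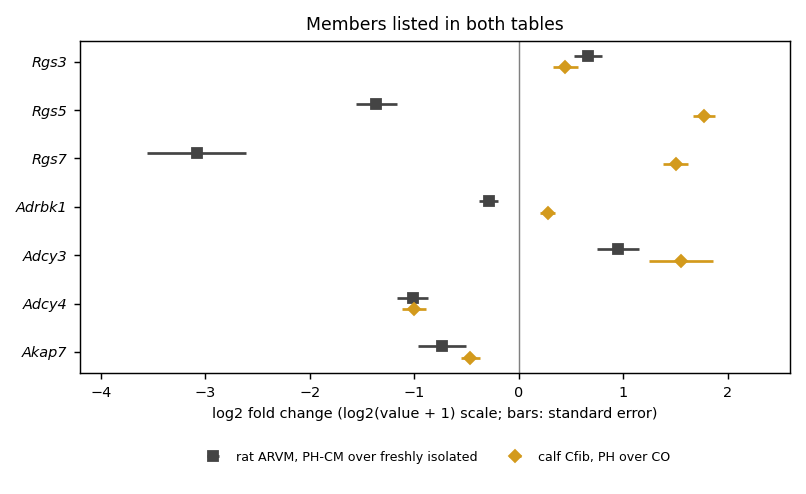
Log2 fold change (horizontal axis, log2(value + 1) scale, bars are standard errors) of the 7 members listed in both tables, squares for rat ARVM (PH-CM over freshly isolated) and diamonds for calf Cfib (PH over CO). Rgs5 and Rgs7 lie on opposite sides of 0, and the Adrbk1 value of Cfib falls to 0.00031 after rescaling by the median of ratios.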

How the data were processed

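RNA of 12 libraries was, per the study's methods, depleted of ribosomal RNA and sequenced on a HiSeq4000. The submitters' processing notes name HISAT2, StringTie and DESeq2 and the builds rn6 and bosTau8, with versions and counting strand not given in the sources used here. The authors kept genes with a value greater than 1 in a condition and a p-value under 0.05. For ARVM the deposited unit is a signal, namely reads over a size factor (0.632 to 1.32), because 100% of the values were whole reads within 0.01 reads. The smallest value of PH-CM library ha211 stands for 2 reads, elsewhere for 1. For Cfib the deposited signal carries a length and a library scaling like that of FPKM or TPM, and the exact unit is not stated. Columns that belong to no sample numbered 0.

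Each table was fitted whole with limma 3.58.1 in R 4.3.3 on log2(value + 1) (moderated with a mean-variance trend), PH-CM against freshly isolated ARVM and PH against CO Cfib, 3 libraries each, at an adjusted p (Benjamini-Hochberg) under 0.05. Permuting 3 against 3 libraries allows no exact two-sided p below 0.1. On the recovered ARVM reads, edgeR 4.0.16 (quasi-likelihood test, TMM) called 6815 and DESeq2 1.42.0 called 6668 of 7052 genes, against 6882 by limma. Exact intervals (95%) and matching used Python 3.11.15 with pandas 2.3.3, scipy 1.17.1 and numpy 2.4.6. The fits were tested on simulated data. Members, lists and alternatives were chosen with earlier results of these data known. Named in full were every Cfib member, members of both tables, members without a read in 1 group, up to 4 called ARVM members per role with the largest change (mean of 50 or more where higher), the member of each role with the highest mean count, and up to 2 called partners per list (mean of at least 50, or 5 in Cfib). Other members are given to account for all. In Cfib the receptors NPR1, whose mean was below 5, and PTGER4 are given beside these, so that every listed receptor is named. Of the rat members 60 were matched to RefSeq by symbol and 5 by synonym, and 56 have a promoter entry. Gene coordinates in rn6 and bovine sequences were not used here.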

Additional observations from a re-analysis of the deposited data

How the results depend on the processing

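For ARVM, 13 alternatives gave 26 to 38 members called higher and 24 to 27 lower, the lowest with a mean of at least 50, where fewer members were tested. edgeR and DESeq2 each called 36 higher and 27 lower. Leaving out each library gave 36 higher and 25 to 27 lower, with partners at 15 to 18 higher and 26 to 27 lower. Of the log2 fold changes of members named in full 607 comparisons kept direction and call and 10 lost the call. Pde4a was not counted among these and lost its call in the settings given above and with a mean of at least 50. For Cfib, 165 comparisons kept direction and call and 11 lost the call, most of these in a fit with the PH libraries averaged. In neither experiment did a named change reverse. Tested only at a mean of at least 5, 8 Cfib members gave 6 higher and 2 lower calls, and 8 partners 6 higher. With the PH Cfib averaged into 1 sample, 5 members were called higher, 2 lower and 7 partners higher. That setting leaves the PH group at 1 sample and takes the spread from the 3 CO libraries alone, so its fewer calls follow from its construction and bear on no result. Leaving out each Cfib library gave 9 to 10 members higher and 3 to 4 lower, with partners at 11 higher and 2 lower. Rescaling by the median of ratios left 1709 Cfib genes called. At a pseudocount of 0.1 the log2 fold change of RGS5 was 3.13 and those of RGS11 and ADCY4 1.23 and -1.74, and at 10 they were 0.39, 0.10 and -0.20. Cfib labels share replicate numbers, but deviations of equal numbers correlated at 0.258, 0.0312 and 0.259, so the numbers were not taken to pair libraries. The fit with a replicate block called 10 Cfib members higher and 4 lower, with partners at 11 and 2. No paired analysis was possible for ARVM because the groups share no replicate number. Cfib depth is unknown, and ARVM members with few reads are limited by counting.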
